A study of Homo sapiens with 38 samples.

Results

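RNA levels were examined for 10 genes whose transcription is switched on by the ERK (extracellular signal-regulated kinase) pathway: DUSP4, DUSP5, DUSP6, SPRY4, SPRED1, SPRED2, ETV4, ETV5, PHLDA1 and EPHA2. The genes were chosen by name, and all 10 were found among the 58425 genes with a transcript in the quantification tables. RNA of the nucleus and of the cytoplasm had been sequenced in HCT116, a line of human colorectal carcinoma cells, as wild type and as 4 derived lines edited with CRISPR to lack AGO1, AGO2, AGO1 and AGO2 (AGO1/2 knockout), or AGO1, AGO2 and AGO3 (AGO1/2/3 knockout). Argonaute (AGO) proteins carry microRNAs to their target RNAs. There were 3 libraries for every genotype in either fraction, 30 in all, numbered by the passage of the culture: 27 to 29 for wild type, 6 to 8 for the AGO1 knockout, 8 to 10 for the AGO2 knockout, 9 to 11 for the AGO1/2 knockout, and 11, 12 and 14 for the AGO1/2/3 knockout. No cells were treated, and each genotype was 1 line, so genotype, clone and passage cannot be told apart.

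ERK is the last kinase of the RAS, RAF and MEK cascade, which relays signals from growth factor receptors to the nucleus. Among the genes that active ERK induces are its own brakes: DUSP4 and DUSP5, phosphatases that act on kinases in the nucleus, DUSP6, which removes phosphate from ERK in the cytoplasm, and SPRY4, SPRED1 and SPRED2, which restrain RAS and RAF. ETV4 and ETV5 are ETS family transcription factors, PHLDA1 is a pleckstrin homology-like protein, and EPHA2 is a receptor tyrosine kinase for ephrins. The levels of such genes are widely used as a readout of pathway output.

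The libraries held 39476205 to 79731793 estimated reads in the cytoplasm and 20431557 to 54097984 in the nucleus, with the wild-type libraries the shallowest in both. AGO1 RNA was at 10.7 to 14.4 TPM (a share of all transcripts in the library, corrected for transcript length) in the cytoplasm of wild-type cells and at 0.807 to 1.02 in the 3 lines labelled as lacking AGO1. AGO2 RNA was at 31.1 to 39.8 TPM in wild-type cytoplasm, at 16.6 to 21 in the AGO2 knockout, and at 24.1 to 29.2 in the AGO1/2 and AGO1/2/3 knockouts. AGO3 RNA did not separate the AGO1/2/3 knockout (8.02 to 9.33 TPM in the cytoplasm) from the AGO1/2 knockout (7.77 to 9) or wild type (6.62 to 9.53), so RNA level does not check that label. Of the 7 epithelial markers, EPCAM, KRT8, KRT18 and KRT19 were at 42.1 TPM or more in every library, CDH1 fell to 0.681 TPM in its lowest library and VIL1 did not exceed 0.0773. The summed level of the 4 immune markers was 2.22 to 4.04 TPM in the AGO1/2 and AGO1/2/3 knockouts, 0.416 to 0.919 in the AGO1 and AGO2 knockouts and 0.535 to 2.85 in wild type, nearly all of it CD68, while PTPRC did not exceed 0.00413. That of the 3 endothelial markers stayed at or below 0.182 and that of the 4 fibroblast markers at or below 6.34, most of it COL1A1. The part of CD68-bearing RNA in the results was not tested.

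The genes lie apart on GRCh38 except for DUSP6 (chr12:89347235-89352501) and PHLDA1 (chr12:76025447-76031776), which share a chromosome. Of the others, 7 are at chr10:110497907-110511533 (DUSP5), chr5:142310427-142326455 (SPRY4), chr15:38252836-38357249 (SPRED1), chr2:65310851-65432637 (SPRED2), chr17:43527844-43579620 (ETV4), chr3:186046314-186110318 (ETV5) and chr1:16124337-16156069 (EPHA2). All of these but DUSP5 and SPRED1 are on the minus strand.

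Because AGO proteins act through microRNA seeds, the 3′ UTRs of the 10 genes were searched for matches to bases 2 to 8 of 10 microRNA families chosen by name (let-7, miR-15, miR-17, miR-19, miR-21, miR-25, miR-27, miR-30, miR-181 and miR-200bc). MicroRNA sequences are RefSeq's, and transcripts and coordinates are those of GENCODE release 44 on GRCh38. The families matched in most members were miR-27 and miR-181, each in 4 of 10 genes (17.4% and 20.9% of 13592 genes). Next came miR-17, miR-25 and miR-200bc, each in 3 of 10 (24.3%, 12.4% and 18.5% of all genes). Mature sequences of the miR-27, miR-181 and miR-17 families are shown here with the seed in capitals, so that each match below can be read against it.
hsa-miR-27b-3p: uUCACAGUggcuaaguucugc
hsa-miR-181a-5p: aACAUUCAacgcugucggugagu
hsa-miR-17-5p: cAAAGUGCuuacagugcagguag

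The matches lie in the 3′ UTR of the MANE Select transcript, except for PHLDA1, where the transcript used does not carry that tag. SPRED1, also higher in nuclear RNA of the AGO1/2 and AGO1/2/3 knockouts, held 2 miR-17 matches that are not shown. The lines that follow show the site in capitals, on the strand of the RNA, for DUSP6 and SPRY4, which with ETV4 were the members that fell in the AGO2 knockout (ETV4 held no match), and for EPHA2 and ETV5, which rose in nuclear RNA of the AGO1/2 and AGO1/2/3 knockouts.
DUSP6, miR-181, chr12:89348057-89348063: attttggctatTGAATGTgtgtttttaaaa
SPRY4, miR-181, chr5:142312186-142312192: cttatatgaatTGAATGTatcagaagtgta
SPRY4, miR-181, chr5:142310484-142310490: aagttaaaaacTGAATGTactgatttagaa
SPRY4, miR-27, chr5:142310804-142310810: cccctctgcttACTGTGAcagtcgatgatg
SPRY4, miR-17, chr5:142314011-142314017: gtgatgaagaaGCACTTTggggcttttttt
SPRY4, miR-17, chr5:142312022-142312028: agtggcaagttGCACTTTggtgatcttggt
EPHA2, miR-27, chr1:16124784-16124790: taagagggcagACTGTGAacttgactgggt
ETV5, miR-17, chr3:186046940-186046946: ggataaggggtGCACTTTatagctatggaa

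SPRY4 held 7 matches over the 10 families, PHLDA1 6, SPRED1 5, DUSP5 and ETV5 4 each, and DUSP4, DUSP6 and EPHA2 1 each. SPRED2 and ETV4 held none, and no member held a match for let-7 or miR-30. The members' 3′ UTRs were long, with a median of 2487 bases against 1272 over all genes, but carried 1.05 matches per kilobase against 1.15 over all genes. SPRY4 and DUSP6, with 7 and 1, were both lower in the AGO2 knockout, and ETV4, with none, was lower in 3 knockouts. A match is a run of letters and says nothing of whether the site is bound.

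Promoters, taken as 250 bases before to 50 after the start, were held in the RefSeq table used here for 6 members. DUSP4, DUSP5, ETV4 and ETV5 had no entry. Searched on both strands, the ETS core CCGGAA was found in 1 of the 7 promoters of these members, that of PHLDA1 (17.2% of 35116 promoters held it), the AP-1 motif TGACTCA or TGAGTCA in 1, that of SPRED2 (4.95%), and the serum response core CCATAT in the same SPRED2 promoter (5.62%). These are motifs of factors that carry ERK signals to genes. The SPRED2 promoter with both matches lies inside the span of the gene given above, not at its 5′ end. Motifs are shown on the strand of the gene with the match in capitals.
PHLDA1, ETS core, chr12:76031860-76031865: aggagaggagtTTCCGGggctcgggtcc
SPRED2, AP-1, chr2:65366778-65366784: taaccctcggaTGACTCAtccggtacaat
SPRED2, serum response core, chr2:65366731-65366736: gactgaatcatATATGGgg

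One wild-type culture stood apart in these genes. Within each genotype the CPM of a culture (read counts per library size, scaled within a fraction by the TMM method) were divided by the mean of the other two. In wild-type passage 29 the median ratio over the 10 members was 1.47 in the cytoplasm and 1.42 in the nucleus, and 5 of 10 members (DUSP4, DUSP5, DUSP6, ETV5 and EPHA2) were at 1.3 or more in both fractions, as were 6.33% of 7237 expressed genes. DUSP5 was at 2.51 in the cytoplasm and 2.32 in the nucleus, and EPHA2 at 2.33 and 2.23. AGO1/2 knockout passage 11 was high for 3 members, DUSP6 (1.68 and 1.57), SPRY4 (1.46 and 1.36) and DUSP4 (1.38 and 1.3), as were 1.66% of genes. AGO2 knockout passage 10 was high for 1 member, as were 0.276% of genes, and the other 12 cultures for none. What set these cultures apart was not tested. Values without wild-type passage 29 and AGO1/2 knockout passage 11 are given beside the results named below whose call they change. This choice was made after the values were seen, for high values in these genes. The p-values without these cultures are therefore descriptions and not independent tests.

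**Figure D1:**
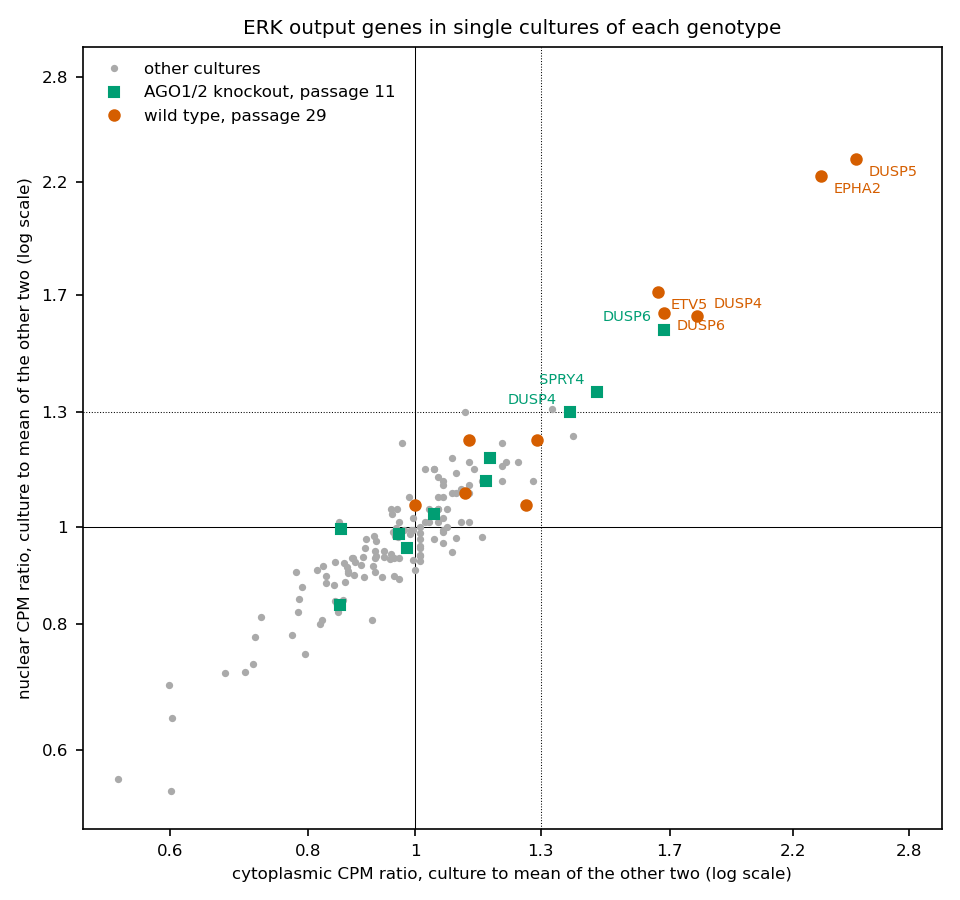
Each point is 1 of the 10 genes in 1 of 15 cultures, placed by its cytoplasmic (x axis) and nuclear (y axis) CPM ratio to the mean of the other two cultures of its genotype, on log scales, with dotted lines at 1.3. Wild-type passage 29 (orange circles) holds 5 genes above both lines and AGO1/2 knockout passage 11 (green squares) holds 3, while the other cultures (grey) hold 1 between them.

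DUSP6, the cytoplasmic ERK phosphatase, showed the widest range of the 10 genes in the cytoplasm, where its mean differed 2.93-fold between genotypes, and in the nucleus, where it differed 3.26-fold. In the cytoplasm it was at 174, 201 and 315 CPM in wild-type passages 27, 28 and 29, and at 80.6, 79.3 and 106 CPM in the AGO2 knockout, where all 3 libraries lay below all wild-type libraries. It fell by 1.38 on the log2 scale (SE 0.235, adjusted p = 0.00116, edgeR), which is 2.6-fold, and by 1.08 without the cultures that stood apart. In the nucleus it was at 199, 217 and 339 CPM in wild type and at 115, 109 and 146 CPM in the AGO2 knockout. The nuclear change was a fall by 1.03 (SE 0.206, adjusted p = 0.00115), again with no overlap, and by 0.73 without those cultures. Fewer cells with DUSP6 RNA and less of it per cell cannot be told apart in such bulk RNA.

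In the AGO1/2/3 knockout DUSP6 lay at the other end. Its nuclear level was 386, 344 and 475 CPM, above all wild-type libraries, a log2 fold change of 0.67 (SE 0.204, adjusted p = 0.0103). Leaving out AGO1/2/3 knockout passage 14 gave 0.54 with an adjusted p of 0.0546. In the cytoplasm of that line it was at 274, 227 and 279 CPM and overlapped wild type, and the log2 fold change of 0.18 did not pass the test. Without the cultures that stood apart it was 0.47 and passed (adjusted p = 0.0183). The AGO1/2 knockout was at 135, 128 and 221 CPM in the cytoplasm, a log2 fold change of -0.51 that missed the threshold (adjusted p = 0.0807), and at 239.5, 239 and 376 in the nucleus. The cytoplasmic fall in that line passed without AGO1/2 knockout passage 11 (-0.81, adjusted p = 0.0082), without both cultures that stood apart (-0.51, adjusted p = 0.0169), without the low-count filter (-0.49, adjusted p = 0.039) and with limma (-0.88, adjusted p = 0.0058). The AGO1 knockout was at 125, 146 and 174 CPM in the cytoplasm (-0.63, adjusted p = 0.0907), a fall that DESeq2 called (adjusted p = 0.0405). Both falls depended on single libraries: leaving out 1 at a time gave -0.8 to -0.34 in the AGO1 knockout and -0.81 to -0.22 in the AGO1/2 knockout. Only the AGO2 knockout was separated from its neighbour in the order of genotype means, the AGO1 knockout, in both fractions.

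DUSP4, a nuclear phosphatase of ERK and related kinases encoded on chromosome 8, was higher in the lines that lack more than 1 AGO protein. In the nucleus it was at 93.7, 85.6 and 145 CPM in wild type, 167, 161 and 213 in the AGO1/2 knockout and 209.6, 209 and 239 in the AGO1/2/3 knockout. Both knockouts lay wholly above wild type. The log2 fold changes were 0.74 (SE 0.162, adjusted p = 8.6e-04) and 1.02 (SE 0.162, adjusted p = 6.9e-05), and they were 0.90 and 1.31 without the cultures that stood apart. In the cytoplasm the AGO1/2/3 knockout, at 207, 201 and 208 CPM, lay above wild type, at 98.6, 96.2 and 176, and rose by 0.74 (SE 0.191, adjusted p = 0.00684). The cytoplasmic AGO1/2 knockout, at 141, 128 and 186 CPM, overlapped wild type. In the AGO1 and AGO2 knockouts DUSP4 stayed between 96.7 and 131 CPM in both fractions, within the wild-type range, and none of the 4 comparisons passed the test with all libraries. Without both cultures that stood apart DUSP4 passed as higher in the AGO1 knockout, by 0.44 in the nucleus (adjusted p = 0.00204) and 0.29 in the cytoplasm (adjusted p = 0.0398, from -0.06 with all libraries), and in the nucleus of the AGO2 knockout, by 0.39 (adjusted p = 0.00268). The cytoplasmic AGO1/2 knockout also passed then, at 0.47 (adjusted p = 7.1e-04).

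DUSP5, which holds ERK in the nucleus and removes its phosphate there, was higher in wild-type passage 29 than in the other wild-type cultures. Its wild-type levels were 87.2, 79.9 and 209.9 CPM in the cytoplasm and 66.7, 59.9 and 147 in the nucleus. In the nucleus of the AGO1/2 and AGO1/2/3 knockouts it ran from 112 to 144 CPM, above passages 27 and 28 and below passage 29. With all libraries and the filter on low counts no comparison of DUSP5 with wild type passed edgeR's test, the largest being a cytoplasmic log2 fold change of -0.66 in the AGO2 knockout (adjusted p = 0.104). This fall passed without the filter (-0.63, adjusted p = 0.0399) and with limma (-0.72, adjusted p = 0.0301). It also passed without wild-type passage 27 (-0.86, adjusted p = 0.0411) or 28 (-0.90, adjusted p = 0.0242). Leaving out 1 library at a time gave -0.90 to -0.07. Without both cultures that stood apart, nuclear DUSP5 was higher in the AGO1/2 knockout (1.12, adjusted p = 1.0e-07), the AGO1/2/3 knockout (1.08, adjusted p = 9.4e-08) and the AGO2 knockout (0.29, adjusted p = 0.0203). In the cytoplasm it was then higher by 0.68 in the AGO1/2 knockout (adjusted p = 1.0e-04) and 0.76 in the AGO1/2/3 knockout (adjusted p = 2.9e-05). Passage 29 was left out for high values in genes such as DUSP5, so these calls are no independent test. With all libraries the nuclear rises passed in both lines without the low-count filter (0.56, adjusted p = 9.1e-04, and 0.61, adjusted p = 4.7e-04) and with length-scaled counts (0.58, adjusted p = 0.0438, and 0.61, adjusted p = 0.0401), and in the AGO1/2 knockout with limma (0.56, adjusted p = 0.0405).

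SPRY4, a Sprouty protein that restrains signalling between receptor and RAF, fell with DUSP6 in the AGO2 knockout. In the nucleus it was at 211, 203 and 217 CPM in wild type and at 126, 122 and 153 in the AGO2 knockout. The log2 fold change was -0.65 (SE 0.121, adjusted p = 6.4e-04), or 1.57-fold lower. In the cytoplasm it was at 127, 134 and 164 CPM in wild type and at 73, 67.6 and 98.1 in the AGO2 knockout, a log2 fold change of -0.83 (SE 0.17, adjusted p = 0.0041). No library of the AGO2 knockout overlapped wild type in either fraction. The other 3 knockouts did not pass the test in either fraction with all libraries, at cytoplasmic levels of 97.3 to 165 CPM and nuclear levels of 154 to 229 CPM. Nuclear SPRY4 in the AGO1/2 knockout, at -0.26 (adjusted p = 0.0704), passed as lower without AGO1/2 knockout passage 11 (-0.41, adjusted p = 0.00376), without both cultures that stood apart (-0.36, adjusted p = 0.00764) and with limma on log2(TPM + 1) (-0.42, adjusted p = 0.00574).

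SPRED1 and SPRED2, relatives of Sprouty that recruit neurofibromin to RAS, varied little. Over all 30 libraries SPRED1 ran from 49.4 to 63 CPM. SPRED2 ran from 93.7 to 120.3 CPM in the cytoplasm and from 65.2 to 89.2 in the nucleus. In the nucleus both were higher in the AGO1/2 and AGO1/2/3 knockouts without overlap: SPRED2 was at 68.7, 66.1 and 73 CPM in wild type and 86.9, 88.8 and 83.7 in the AGO1/2 knockout (log2 fold change 0.32, SE 0.0699, adjusted p = 8.7e-04). SPRED1 was at 53.5, 53.3 and 56 CPM in wild type and at 59.3, 62 and 62.3 in the AGO1/2 knockout (0.17, SE 0.0546, adjusted p = 0.011). In the AGO1/2/3 knockout the changes were 0.29 for SPRED2 (adjusted p = 0.0023) and 0.14 for SPRED1 (adjusted p = 0.0366). They depended on the scale: on log2(TPM + 1) with limma, SPRED2 no longer passed (0.17 and 0.05) and SPRED1 turned to -0.06 and -0.26, and the latter passed as a fall (adjusted p = 0.00683). With length-scaled counts SPRED1 was at 0.05 and 0.00 and did not pass. Its change in the AGO1/2/3 knockout was also not called when only the groups compared were fitted (adjusted p = 0.145), without AGO1/2/3 knockout passage 11 (0.15, adjusted p = 0.0555) or without passage 14 (0.11, adjusted p = 0.132).

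ETV4 and ETV5, ETS transcription factors of the same subfamily, passed in opposite directions in nuclear RNA of the AGO1/2 and AGO1/2/3 knockouts. In the AGO1 knockout both were lower in both fractions, without passing the test. ETV4 in the cytoplasm was at 45.1, 43.5 and 49.8 CPM in wild type, at 37.5, 34.2 and 36.7 in the AGO2 knockout, at 34.7, 38 and 31.2 in the AGO1/2 knockout, and at 33.4, 33 and 32.8 in the AGO1/2/3 knockout. All 9 of these knockout libraries lay below all wild-type libraries. The log2 fold changes were -0.35 (SE 0.0743, adjusted p = 0.00493), -0.41 (SE 0.0743, adjusted p = 3.3e-04) and -0.48 (SE 0.0744, adjusted p = 1.4e-04), and leaving out both cultures that stood apart gave -0.29, -0.29 and -0.42, each past the test. The AGO1 knockout, at 44, 43 and 41.5 CPM, overlapped wild type. Nuclear ETV4 was also lower, by 0.25, 0.24 and 0.29 (adjusted p = 0.0217, 0.0142 and 0.00488), from 31.6, 32.2 and 39 CPM in wild type to between 26.6 and 31.1. The nuclear falls in the AGO2 and AGO1/2 knockouts did not pass without wild-type passage 29 (-0.12, adjusted p = 0.151, and -0.11, adjusted p = 0.152).

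ETV5 rose in nuclear RNA. It was at 63.6, 64.6 and 109 CPM in wild type, 136, 131 and 149 in the AGO1/2 knockout and 156, 133 and 175 in the AGO1/2/3 knockout, with no overlap. The log2 fold changes were 0.81 (SE 0.162, adjusted p = 4.1e-04) and 0.97 (SE 0.162, adjusted p = 1.1e-04). In the cytoplasm the AGO1/2 knockout, at 101, 89.7 and 111 CPM, lay within the wild-type range of 79 to 136, and the AGO1/2/3 knockout, at 141, 124 and 129, overlapped its top. The latter's log2 fold change of 0.39 (adjusted p = 0.0721) passed without the low-count filter (0.42, adjusted p = 0.0185), with DESeq2 (0.39, adjusted p = 0.045) and without wild-type passage 29 (0.68, adjusted p = 1.8e-04). ETV5 in the AGO1 knockout was at the low end of both fractions, with 65.6 to 83.5 CPM in the cytoplasm and 59.2 to 68.9 in the nucleus, and did not pass the test. In the nucleus the AGO2 knockout, at 88.5 to 97.7 CPM, was separated from the AGO1/2 knockout next above it, and its log2 fold change of 0.23 became 0.56 without wild-type passage 29 (adjusted p = 3.9e-04).

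EPHA2, the ephrin receptor, showed the largest nuclear rise of the 10. Nuclear EPHA2 was at 115, 95.3 and 235 CPM in wild type, 283, 295 and 284 in the AGO1/2 knockout and 349, 297 and 316 in the AGO1/2/3 knockout. Both lay above even wild-type passage 29, with log2 fold changes of 0.96 (SE 0.222, adjusted p = 0.00139) and 1.11 (SE 0.223, adjusted p = 5.3e-04), or 1.94-fold and 2.16-fold. Without the cultures that stood apart they were 1.49 and 1.63. In the cytoplasm wild type was at 95.6, 95.8 and 223 CPM and the AGO1/2 and AGO1/2/3 knockouts at 164 to 204, between the wild-type cultures, and neither comparison passed the test until passage 29 was left out (0.92, adjusted p = 1.8e-05, and 0.96, adjusted p = 8.0e-06, without both cultures). Cytoplasmic EPHA2 was at -0.62 in the AGO1 and -0.56 in the AGO2 knockout without passing (adjusted p = 0.112 and 0.137). Both passed as lower without wild-type passage 27 (-0.82, adjusted p = 0.036, and -0.76, adjusted p = 0.0442) or 28, the latter also with limma (-0.63, adjusted p = 0.0351). Leaving out 1 library at a time gave -0.82 to -0.09 and -0.76 to -0.03. In the nucleus of the AGO2 knockout, at 141, 126 and 135 CPM, the direction itself turned: the value was -0.14 with all libraries and 0.37 without passage 29 (adjusted p = 0.00388).

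PHLDA1 was the steadiest of the highly expressed members. It stayed between 259 and 345 CPM in the cytoplasm and between 279 and 374 in the nucleus, and its highest and lowest genotype means differed 1.13-fold and 1.15-fold. No comparison with wild type passed edgeR's test with all libraries and the filter on low counts. Nuclear PHLDA1 in the AGO1/2/3 knockout passed as higher without that filter (0.27, adjusted p = 0.0096) and with length-scaled counts (0.30, adjusted p = 0.0197). Without both cultures that stood apart it passed in the nucleus of the AGO1, AGO2 and AGO1/2/3 knockouts (0.29, 0.25 and 0.33) and in the cytoplasm of the AGO1/2/3 knockout (0.27, adjusted p = 0.0253).

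**Figure D2:**
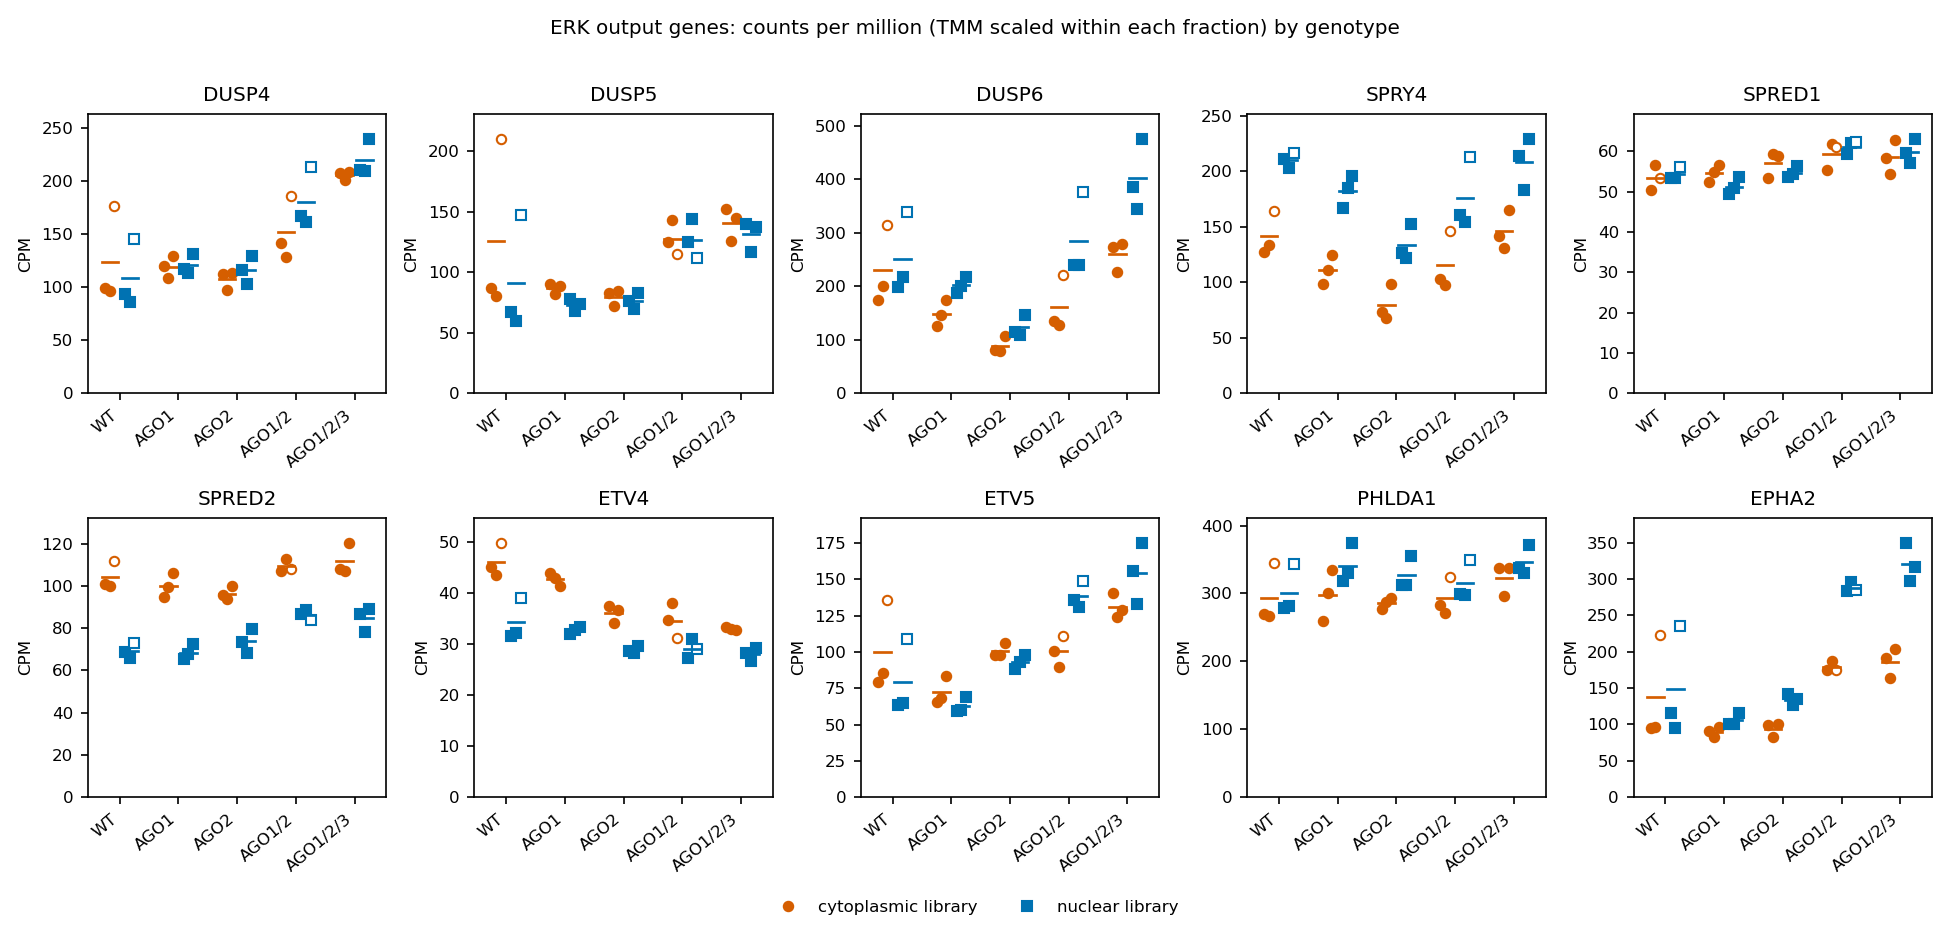
CPM (y axis, from 0, TMM-scaled within each fraction) of each gene in each library, by genotype (x axis), with cytoplasmic libraries as orange circles, nuclear libraries as blue squares and the mean of 3 libraries as a bar. Open symbols mark wild-type passage 29 and AGO1/2 knockout passage 11: DUSP5 and EPHA2 show the widest gap between the open and filled wild-type symbols, and DUSP6 and SPRY4 are lowest in the AGO2 knockout in both fractions.

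Counted by knockout, no member passed edgeR's test in either fraction of the AGO1 knockout, where 12.4% of 17605 cytoplasmic genes (4.28% as higher and 8.13% as lower) and 29.9% of 18919 nuclear genes passed. At an unadjusted p below 0.05 there were 3 members in the cytoplasm and 1 in the nucleus, and DESeq2 called 2 in the cytoplasm, both lower (2778 of 17605 genes passed, 37.5% of them as higher). The AGO2 knockout lowered 3 of 10 members in the cytoplasm (16.1% of all genes passed, 9.0% as lower) and 3 of 10 in the nucleus (40.2% passed, 20.2% as higher and 19.9% as lower), namely DUSP6, SPRY4 and ETV4 in both. In the AGO1/2 knockout 1 of 10 passed in the cytoplasm, as lower (49.2% of all genes, 23.9% as higher and 25.4% as lower), and 6 of 10 in the nucleus (67.6%), and in the AGO1/2/3 knockout 2 of 10 passed in the cytoplasm, 1 as higher and 1 as lower (38.7%, 18.6% and 20.0%), and 7 of 10 in the nucleus (58.6%). The nuclear counts in these 2 lines are thus close to the share among all genes, and are no result about the 10 genes as a group. By direction they were 5 higher and 1 lower of 10 in the AGO1/2 knockout (32.9% and 34.7% of all genes) and 6 higher and 1 lower in the AGO1/2/3 knockout (29.1% and 29.5%). The median log2 fold change of the members in the nucleus was 0.25 and 0.41 in these lines, against -0.06 and -0.03 over all genes tested.

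All members passed the filter on low counts in every comparison. The CPM of the groups did not overlap for 4 of 10 members in the cytoplasm of the AGO2 knockout (31.8% of all genes) and 3 in its nucleus (48.4%), for 1 (51.0%) and 6 (66.5%) in the AGO1/2 knockout, for 2 (46.5%) and 7 (61.0%) in the AGO1/2/3 knockout, and for 1 in each fraction of the AGO1 knockout (29.7% and 41.8%). All 8 comparisons share the wild-type libraries of their fraction, so the values in passage 29 enter each of them.

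**Figure D3:**
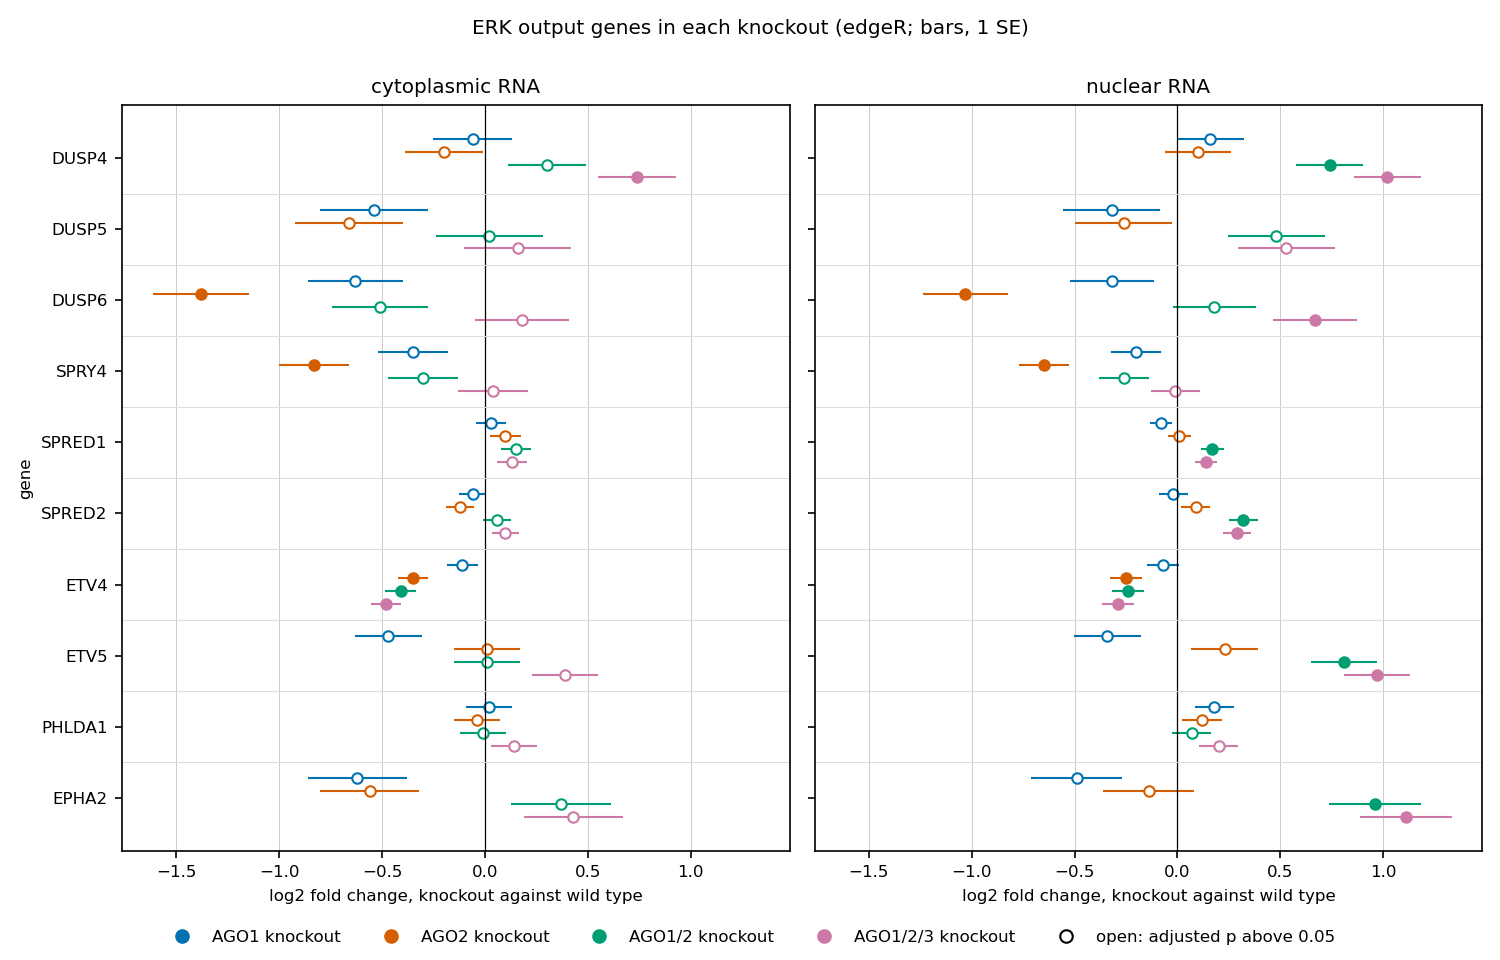
Log2 fold change against wild type (x axis, bars 1 SE, edgeR with all 15 libraries of a fraction) for each gene (y axis) in cytoplasmic (left) and nuclear (right) RNA, with filled points for an adjusted p of at most 0.05. DUSP6 in the AGO2 knockout is the lowest point in both panels (-1.38 and -1.03), and EPHA2 in the AGO1/2/3 knockout is the highest in the nuclear panel (1.11).

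The AGO1/2/3 and AGO1/2 knockouts were also compared with each other, a contrast that holds no wild-type library. No member passed in either fraction by edgeR (4.95% of all genes in the cytoplasm, 2.47% as higher and 2.48% as lower, and 3.48% in the nucleus passed), with 3 members in the cytoplasm and 1 in the nucleus at an unadjusted p below 0.05. DUSP6 came closest: in the cytoplasm all 3 AGO1/2/3 knockout libraries were above all AGO1/2 knockout libraries, by 0.69 (SE 0.231, adjusted p = 0.0937), and DESeq2 called it (adjusted p = 0.0225). Groups did not overlap for 3 of 10 members in the cytoplasm (28.5% of all genes) and 1 in the nucleus (29.3%). With AGO1/2 knockout passage 11 and wild-type passage 29 left out, 4 members passed in each fraction, all higher in the AGO1/2/3 knockout, among them DUSP6 (0.98 in the cytoplasm and 0.74 in the nucleus), DUSP4 (0.61 and 0.41) and SPRY4 (0.55 and 0.40). AGO1/2 knockout passage 11 was left out because DUSP6, SPRY4 and DUSP4 were high in it, so these calls are no separate evidence of a difference. The shares of all genes were also larger then. In the cytoplasm 4201 of 17863 genes passed, 46.4% of them as higher, and in the nucleus 5713 of 19199, 40.5% of them as higher.

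Leaving out these 2 cultures moved most counts towards higher in the knockouts. In the cytoplasm of the AGO1/2/3 knockout 7 of 10 members then passed, 6 of them higher, in place of 2. In the cytoplasm of the AGO1/2 knockout 5 passed, 3 of them higher, in place of 1, and in the nucleus of the AGO2 knockout 7 passed, 5 of them higher, in place of 3. Among all genes, 8314 of 17863, 8981 of 17863 and 8407 of 19199 then passed in these comparisons, in the same order. Of those genes 50.2%, 50.8% and 56.1% were higher. The falls of DUSP6 and SPRY4 in the AGO2 knockout remained past the test in both fractions. Since both left-out cultures were chosen for their high values in these genes, such counts, fold changes and p-values are descriptions of what they carry.

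Per transcript length, DUSP6 was the most abundant member in wild-type cells, at a mean TPM of 74.8 ± 19 (SD, n = 3) in the cytoplasm and 89.9 ± 19.5 in the nucleus, and SPRED1 the least, at 7.07 ± 0.518 and 8.66 ± 0.143. Between them in the cytoplasm came PHLDA1 (37.7 ± 3.51), DUSP5 (37.5 ± 19.5), EPHA2 (26.9 ± 12.2), SPRY4 (25.6 ± 1.7), SPRED2 (20.7 ± 0.521), ETV5 (19.6 ± 4.54), ETV4 (18.3 ± 0.595) and DUSP4 (16.4 ± 4.94). Neighbours in this order did not overlap between DUSP6 and PHLDA1, between SPRY4 and SPRED2, and between DUSP4 and SPRED1, and all other neighbours did.

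In wild-type cells most members had a lower share of reads in nuclear than in cytoplasmic RNA. With edgeR, 7 of 10 passed as lower in the nucleus (76.8% of 20104 genes passed, 39.6% as higher and 37.3% as lower), from SPRED2 at -1.03 (SE 0.0667, adjusted p = 2.9e-13), DUSP5 at -0.91 and ETV4 at -0.87 to PHLDA1 at -0.40. Without cytoplasmic wild-type passage 29 DUSP5 (-0.34, adjusted p = 0.14) and DUSP4 (-0.31, adjusted p = 0.0819) no longer passed. When the 2 fractions of a passage were paired by a replicate block, all 10 passed: DUSP6 (-0.30) and EPHA2 (-0.33) joined as lower and SPRY4 (0.14, adjusted p = 0.0488) as higher. With this block 16152 of all 20104 genes passed, 51% of them as higher. The direction depended on the scale. On log2(TPM + 1), where the median of all genes is shifted by 0.29 towards the nucleus against 0.04 in the main test, DUSP4, ETV5 and PHLDA1 took the opposite sign without passing (0.10, 0.09 and 0.12), DUSP5 and ETV4 no longer passed (-0.31 and -0.10), and SPRED1 passed as higher (0.26, adjusted p = 0.00643). SPRY4 was the most nuclear member by TPM, at 1.9 times its cytoplasmic level, and SPRED2 the least, at 0.783 times.

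Markers of the fractions moved with genotype. MALAT1, a nuclear noncoding RNA, was at a mean of 3041 TPM in wild-type nuclei and 1313 in AGO1/2 knockout nuclei, against 119 and 106 in the cytoplasm. GAPDH, a cytoplasmic mRNA, was at 1263 and 2666 TPM in those nuclei and at 1961 and 1486 in the cytoplasm. The median nuclear to cytoplasmic log2 TPM ratio over 7244 expressed genes rose from 0.01 in wild type to 0.70 in the AGO1/2 knockout and 0.27 in the AGO1/2/3 knockout. The part of this shift in the members' nuclear rises was not tested.

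The members differed in the level of this ratio, which is not the same as its change from wild type. SPRY4, high in level, went from 0.92 in wild type to 1.22 in the AGO1/2 knockout. DUSP5, below the median of all genes in level, went from -0.32 to 0.51, and the median itself from 0.01 to 0.70. DUSP6 in the AGO1/2 knockout had a mean log2 ratio of 1.29 ± 0.20 (SD, n = 3), EPHA2 1.24 ± 0.12, SPRY4 1.22 ± 0.16, ETV5 1.01 ± 0.20 and DUSP4 0.85 ± 0.18, all above the median of all genes. ETV4, at 0.33 ± 0.04, and SPRED2, at 0.17 ± 0.12, lay below it. EPHA2 stayed above the median of all genes in every genotype, from 0.35 ± 0.12 in wild type through 0.45 ± 0.06 in the AGO1 knockout and 0.75 ± 0.12 in the AGO2 knockout to 0.99 ± 0.14 in the AGO1/2/3 knockout. DUSP4, DUSP6 and SPRY4 also stayed above it in every genotype.

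**Figure D4:**
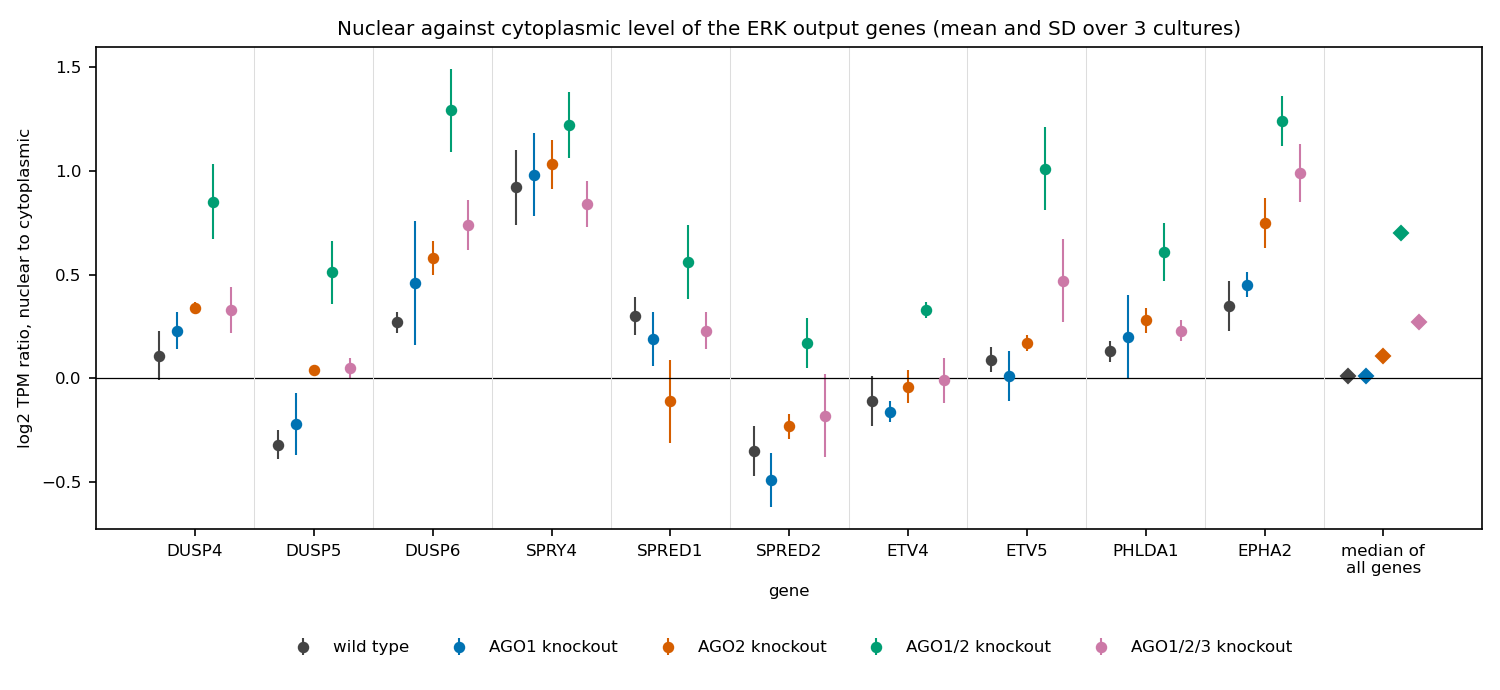
Log2 ratio of nuclear to cytoplasmic TPM (y axis) of each gene (x axis) by genotype, with the mean and SD over 3 cultures, and the median of 7244 genes (diamonds) at the right. In the AGO1/2 knockout (green) the median of all genes is at 0.70, and DUSP6, SPRY4, EPHA2, ETV5 and DUSP4 lie above it while the other 5 genes lie below.

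Whether a knockout changed a member by different amounts in the nucleus and the cytoplasm was tested with an interaction term over all 30 libraries. For the AGO1/2 knockout 1 of 10 members passed (36.5% of 20104 genes): the change of ETV5 was higher in nuclear than in cytoplasmic RNA by 0.73 on the log2 scale (SE 0.233, adjusted p = 0.0156). This call was lost without cytoplasmic wild-type passage 29 (0.46, adjusted p = 0.0738), nuclear wild-type passage 27 (0.60, adjusted p = 0.0576) or nuclear wild-type passage 28 (0.61, adjusted p = 0.057) and with length-scaled counts (0.52, adjusted p = 0.0792). The differences for DUSP6 (0.61, adjusted p = 0.142) and EPHA2 (0.52, adjusted p = 0.248) missed the threshold. No member passed for the AGO1/2/3 (22.7% of genes), AGO2 (5.76%, 2.63% as higher and 3.13% as lower) or AGO1 (0.662%) knockouts by edgeR, where 1, 1 and 0 members had an unadjusted p below 0.05 and DESeq2 also called none. With the fractions of a passage paired by a replicate block, 6 members passed for the AGO1/2, 4 for the AGO1/2/3, 5 for the AGO2 and 2 for the AGO1 knockout, all with the higher change in nuclear RNA, among them DUSP6 (0.62, adjusted p = 1.0e-05) and EPHA2 (0.50, adjusted p = 1.2e-04) in the AGO1/2 knockout. Of all 20104 genes, 9329, 7011, 3623 and 1261 passed with this block, in the same order. Of those genes 56.2%, 56.5%, 66% and 64.6% had the higher change in nuclear RNA. Outside wild type the same-passage correlations of deviations ran from -0.027 to 0.212. Without both cultures that stood apart the AGO1/2 differences of DUSP6 (0.62, adjusted p = 0.0342) and EPHA2 (0.45, adjusted p = 0.028) and the AGO1/2/3 differences of ETV5 (0.49, adjusted p = 0.013) and EPHA2 (0.54, adjusted p = 0.00765) also passed.

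For 6 members most of the sum came from 1 transcript. DUSP4-201, DUSP5-201, PHLDA1-202, SPRED2-201, EPHA2-201 and ETV5-201 each gave a mean of 70.4% or more of their gene's TPM in wild-type cells in either fraction. Some shorter transcripts were found almost only in nuclear RNA. SPRY4-203, which has no defined coding sequence, was at 10.6 ± 1.53 TPM in wild-type nuclei and 0.228 ± 0.0912 in the cytoplasm, and DUSP4-202 at 4.17 ± 0.478 and 0.155 ± 0.0736. DUSP4-202 made up 24.1% of DUSP4 TPM in wild-type nuclei and 14% in those of the AGO1/2/3 knockout, where it was at 4.1 ± 0.241 TPM. DUSP4-201, which made up 98.9% of DUSP4 TPM in wild-type cytoplasm, was at 25.2 ± 1.97 TPM in AGO1/2/3 knockout nuclei and 13.4 ± 3.29 in wild-type nuclei, so the higher nuclear DUSP4 lay in this transcript. DUSP6 was divided over 3 transcripts, DUSP6-201, DUSP6-202 and DUSP6-204, whose shares stayed between 25.5% and 41.9% in both fractions of wild type and the AGO1/2/3 knockout.

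ETV4, whose RNA was divided over 5 transcripts of 10% or more, showed the most varied makeup. ETV4-202 gave 51.8% of ETV4 TPM in wild-type cytoplasm (9.46 ± 0.618 TPM) and 41.4% in the AGO1/2/3 knockout (4.71 ± 0.747 TPM). Shares between overlapping transcripts are estimates, and ETV4 also overlaps DHX8, ETV5 overlaps DGKG and ETV5-AS1, and SPRY4, PHLDA1 and EPHA2 overlap antisense genes. The libraries were stranded, but reads of a partner on the same strand, as for ETV5 and DGKG, cannot be separated by strand.

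Other genes of the pathway were taken from 5 lists, 50 genes in all: 6 ligands, 8 receptors, 16 adaptors and core kinases, 8 negative regulators and 12 other output genes. In nuclear RNA of the AGO1/2/3 knockout 27 were higher and 9 lower, and in its cytoplasm 18 of the 49 tested were higher and 8 lower. Of the receptors 7 of 8 were higher in the nucleus and 1 lower (median log2 fold change 0.58), among them FGFR3 at 1.03 (adjusted p = 8.2e-07) and MET, the hepatocyte growth factor receptor, at 0.81 (adjusted p = 3.8e-07). Of the adaptors and core kinases 11 were higher and 1 lower (median 0.52), led by the adaptors SHC1 at 0.84 and GRB2 at 0.75. Of the negative regulators none was higher and 4 of 8 were lower (median -0.36), with NF1, the neurofibromin that SPRED proteins recruit, falling by 0.89 (adjusted p = 4.4e-08) and SPRY1 by 0.70 (adjusted p = 0.00715). The rest of these 8 regulators did not pass. Of the brakes among the 10 members, DUSP4, DUSP6, SPRED1 and SPRED2 passed as higher in the same nuclei. DUSP5 (0.53, adjusted p = 0.0644, edgeR) and SPRY4 (-0.01) did not pass, and SPRED1 turned to a fall on log2(TPM + 1).

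In the cytoplasm of the same line the counts were 3 higher and 1 lower of 8 receptors (median 0.13), 9 higher and none lower of 16 adaptors and core kinases (median 0.22), and none higher and 2 lower of 8 negative regulators (median -0.20). FGFR2 fell by 0.86 (adjusted p = 3.2e-06) while FGFR3 was higher by 0.67 (adjusted p = 0.00108). The adaptor SHC1 and the exchange factor SOS2 were higher by 0.66 (adjusted p = 2.8e-06) and 0.57 (adjusted p = 0.00802). SPRY1 and SPRY2, Sprouty proteins like SPRY4 but present at only 3.21 and 5.47 CPM in wild type, fell by 1.04 (adjusted p = 2.8e-04) and 0.70 (adjusted p = 1.8e-04).

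The ligand EREG rose in both fractions of the AGO1/2/3 knockout, by 0.81 in the nucleus (adjusted p = 7.5e-08) and 0.63 in the cytoplasm (adjusted p = 1.1e-05), and in the nucleus it was the only ligand besides TGFA (0.34, adjusted p = 0.0435) to pass. Of the other output genes 7 of 12 were higher and 3 lower in the nucleus (median 0.47), with CCND1, cyclin D1, at 1.52 (adjusted p = 9.4e-09) and ETS1 at 1.43 (adjusted p = 1.3e-05). In cytoplasmic RNA they divided into 5 higher and 5 lower (median -0.00), with LIF at 1.57 (adjusted p = 7.9e-06) and EGR1 falling by 1.36 (adjusted p = 0.026) from a mean of 195 ± 145 CPM in wild type to 75.8 ± 23.5. In the AGO2 knockout, where DUSP6 and SPRY4 fell, 2 of the 49 tested were higher and 8 lower in the cytoplasm, and 15 of 50 were higher and 7 lower in the nucleus. There the other output genes held no higher and 4 lower in the cytoplasm (median -0.26), and 3 higher and 2 lower in the nucleus (median 0.01). Beside these counts stand the shares of all genes given above for each comparison, and the lists were not tested against them.

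The genes whose pattern over the 5 genotypes was nearest to that of DUSP6, the member of widest range, were found by the mean absolute difference of centred log2(TPM + 1) values. In the cytoplasm, among 454 genes of similar range, they were MYO1E (0.141), EIF5A2 (0.18) and PCK2 (0.182), with DUSP6 itself at 0.63 in wild type, -0.11, -0.90 and -0.25 in the AGO1, AGO2 and AGO1/2 knockouts and 0.62 in the AGO1/2/3 knockout. In the nucleus, among 630 genes, they were PLD1 (0.18), BHLHE40 (0.193) and RNF11 (0.198). No other member was among the 3 nearest genes in either fraction. The likeness rests on 5 means per gene from shared libraries and is a description.

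The scale bears on the direction of small changes. On log2(TPM + 1) the median of all genes in a knockout was shifted against wild type by between -0.20 and -0.07, and of the genes called 5.99% were higher in the cytoplasmic AGO2 knockout, against 44% in the main test. In the nuclear AGO1/2/3 knockout 26.5% were higher, against 49.7%. Relative to the shift, the members' median in that comparison was 0.39, against 0.44 in the main test, and in the cytoplasmic AGO2 knockout -0.31, against -0.28. The changes of DUSP6 and SPRY4 in the AGO2 knockout, of cytoplasmic ETV4 in 3 knockouts and of nuclear DUSP4, ETV5 and EPHA2 in the AGO1/2 and AGO1/2/3 knockouts kept their direction and stayed past the test on this scale.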

How the data were processed

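Transcript tables of 30 RNA-seq libraries were used. The authors separated fractions by hypotonic lysis with NP-40, depleted ribosomal RNA, made stranded libraries, aligned paired reads with STAR 2.5.3a and quantified transcripts with Salmon 0.11.0 on hg38 (versions per the labels). The deposited tables hold estimated counts and TPM per transcript, with no pooling. Here both were summed by gene through GENCODE release 44 (196040 of 200401 transcripts matched, and 2.23 to 4.01% of reads were left out), and estimated counts were rounded to whole numbers. TMM-scaled counts of genes passing filterByExpr (minimum count 10) were tested with edgeR 4.0.16 (quasi-likelihood, Benjamini-Hochberg over all genes, threshold 0.05) in 5 groups per fraction, and over all 30 libraries for fractions and interactions. The methods were tested on simulated data. Passage numbers are shared between fractions, and same-passage deviations correlated at 0.156, 0.148 and 0.402 in wild type and at -0.027 to 0.212 in the knockouts. Alternatives were RLE scaling, DESeq2 1.42.0, limma 3.58.1 on log2(TPM + 1), no filter, length-scaled counts, only the groups compared, a replicate block and leaving out libraries.

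The members, the lists and the alternatives were chosen with earlier results of these data known. Genes outside the members were named as the 2 largest changes per list and fraction among those past the test in the AGO1/2/3 knockout. The libraries of a group are passages of 1 line, so p-values measure the spread between passages, and an exact permutation test of 3 against 3 could not go below 0.1. The 8 eCLIP samples were not used here.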

Additional observations from a re-analysis of the deposited data

Results flagged for a closer look

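With all libraries, no block and the filter on low counts, ETV5 was the only member whose change in a knockout differed between the fractions by edgeR's test of the difference itself. In the AGO1/2 knockout its log2 fold change against wild type was higher in nuclear than in cytoplasmic RNA by 0.73 (SE 0.233, adjusted p = 0.0156, edgeR's quasi-likelihood test over 30 libraries). All 3 nuclear libraries lay above all nuclear wild-type libraries, and all 3 cytoplasmic libraries lay within the cytoplasmic wild-type range. The call was lost with length-scaled counts (0.52, adjusted p = 0.0792) and without cytoplasmic wild-type passage 29 (0.46, adjusted p = 0.0738), nuclear wild-type passage 27 (0.60, adjusted p = 0.0576) or nuclear wild-type passage 28 (0.61, adjusted p = 0.057). Other members passed under other settings, as DUSP6 did in the AGO1/2 knockout with a replicate block (0.62, adjusted p = 1.0e-05) and without the low-count filter (0.73, adjusted p = 0.0143).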

How the results depend on the processing

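Of 15 counts of members called, values that moved by over 1.5 times are given here, and the cause was not tested. Without the low-count filter the counts were 2 for the cytoplasmic AGO1 and 2 for the cytoplasmic AGO1/2 knockout, 1 for AGO1/2/3 against AGO1/2 in either fraction, 1 for the nuclear AGO1 knockout, and 2 for the AGO1/2 and 2 for the AGO1/2/3 interaction. Of all genes, 2115 and 8319 of 32206, 948 of 32206 (cytoplasm) and 1272 of 34945 (nucleus), 5467 of 34945, and 7131 and 4924 of 36717 passed there, in the same order. DESeq2 gave 2 for the cytoplasmic AGO1 knockout and 1 for cytoplasmic AGO1/2/3 against AGO1/2, and length-scaled counts gave 0 for the AGO1/2 interaction. Of all genes, 2778 and 2117 of 17605 and 6822 of 20103 passed in these comparisons. With limma on log2(TPM + 1) they were 3, 6 and 6 in the cytoplasm of the AGO1, AGO2 and AGO1/2 knockouts, 1 for cytoplasmic AGO1/2/3 against AGO1/2, 7 for the nuclear AGO1 knockout, 3 for the wild-type fractions, and 1 and 8 for the AGO2 and AGO1/2 interactions. Of all genes, 3243, 5090 and 10133 of 17605, 956 of 17605, 6139 of 18919, 15309 of 20104, and 2582 and 11017 of 20104 passed with limma, in the same order. Among genes passing in the cytoplasm of the AGO1, AGO2 and AGO1/2 knockouts 7.34%, 5.99% and 13.4% were higher, and 5.9% in the nuclear AGO1 knockout. On that scale the log2 difference took the opposite sign for DUSP4 (-0.08) and DUSP5 (-0.25) in the cytoplasmic AGO1/2 knockout, DUSP6 (-0.01) and PHLDA1 (-0.10) in the cytoplasmic AGO1/2/3 knockout, DUSP4 (-0.03) and PHLDA1 (-0.05) in the nuclear AGO1 knockout, DUSP4 (-0.14), ETV5 (-0.11) and PHLDA1 (-0.11) in the nuclear AGO2 knockout, SPRED1 in the nuclear AGO1/2 (-0.06) and AGO1/2/3 (-0.26) knockouts, PHLDA1 (-0.06) in nuclear AGO1/2/3 against AGO1/2, and DUSP4 (0.10), SPRED1 (0.26), ETV5 (0.09), PHLDA1 (0.12) and EPHA2 (0.34) between wild-type fractions.

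Without both cultures that stood apart, an alternative added after seeing the data, the counts were 1, 5 and 7 in the cytoplasm of the AGO1, AGO1/2 and AGO1/2/3 knockouts, 4 for AGO1/2/3 against AGO1/2 in either fraction, 2 and 7 in the nucleus of the AGO1 and AGO2 knockouts, and 3 and 2 for the AGO1/2 and AGO1/2/3 interactions, and the sign turned for DUSP4 (0.29) and DUSP5 (0.05) in the cytoplasmic AGO1 knockout and DUSP5 (0.29) and EPHA2 (0.37) in the nuclear AGO2 knockout. Of all genes, 2149 of 17863 then passed in the cytoplasm of the AGO1 knockout and 6095 of 19199 in its nucleus. For the AGO1/2 and AGO1/2/3 interactions 7689 and 5491 of 20365 passed, and the numbers for the other comparisons are given above. With the replicate block the interactions gave 2 and 5 calls for the AGO1 and AGO2 knockouts and 6 and 4 for the AGO1/2 and AGO1/2/3 knockouts, and for the wild-type fractions all 10 members were called.

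Leaving out 1 library at a time gave 0 to 3 and 3 to 5 calls in the cytoplasm of the AGO1 and AGO2 knockouts and 1 to 5 and 2 to 6 in that of the AGO1/2 and AGO1/2/3 knockouts, 0 to 2, 2 to 7, 5 to 7 and 5 to 9 in the nucleus, 0 to 2 for AGO1/2/3 against AGO1/2 in either fraction, 5 to 9 for the wild-type fractions, and 0 to 0, 0 to 0, 0 to 4 and 0 to 2 for the interactions in the same order of knockouts. Counts moved by over 1.5 times without any of the wild-type libraries, cytoplasmic AGO1/2 knockout passage 9 or AGO1/2 knockout passage 11 of either fraction. The sign turned within the range for DUSP4 (-0.21 to 0.29) and DUSP5 (-0.78 to 0.05) in the cytoplasmic AGO1 knockout, DUSP5 in the cytoplasmic AGO1/2 (-0.22 to 0.61) and AGO1/2/3 (-0.08 to 0.75) knockouts, DUSP4 (-0.01 to 0.39), DUSP5 (-0.46 to 0.29) and EPHA2 (-0.35 to 0.37) in the nuclear AGO2 knockout, and EPHA2 between wild-type fractions (-0.80 to 0.17). Over 69 values of single genes, 384 recomputed values without 1 library and 383 under the other alternatives kept their direction and side of the threshold, 13 and 15 lost and 35 and 64 gained a call, and 12 and 21 changed sign.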
